A study of Mus musculus with 4 samples.

Results

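The Ly6 genes described here are Ly6c2, Ly6c1, Ly6a, Ly6i and Ly6e, 5 mouse genes of surface proteins on monocytes and macrophages, out of 23735 loci in the deposited RNA-seq table. They were chosen by name with earlier values of the same comparison known, Ly6c2 having been among its larger differences, so their differences between the groups are given as a description, with no test. Each symbol stood on 1 locus of its own. The libraries came from thioglycolate-elicited peritoneal macrophages of C57BL/6 mice 6 weeks old, collected 3 days after a 3% thioglycolate injection and then cultured. The Ch25h_KO group is labelled ApoE-/-/Ch25h-/- and the Ch25h_WT group ApoE-/-/Ch25h+/+, so both are labelled as lacking Apoe. Each group held 2 libraries described as biological duplicates, with 12 mice per group and no statement of how mice were divided between libraries. The deletions are not labelled as limited to a cell type, and thioglycolate draws monocytes into the cavity, where they become macrophages beside other cells.

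Ly6 proteins are small cysteine-rich proteins that fold into a three-fingered domain, and most are held on the cell surface by a glycosylphosphatidylinositol (GPI) lipid anchor. Many mouse Ly6 genes are induced by interferons. High Ly6C on the cell surface marks classical, inflammatory monocytes, which lower it as they mature into macrophages, and antibodies to Ly6C do not separate the products of Ly6c1 and Ly6c2. Ly6a encodes Sca-1, a marker of blood stem cells that is also found on activated lymphocytes and on endothelial cells. Ly6e is broadly expressed and is known for restricting the entry of coronaviruses, and Ly6i encodes a close relative of Ly6C and Sca-1.

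Near-identical sequence sets how well reads can separate these genes. The first 150 coding bases of the reference transcripts (GENCODE, GRCm38, chromosome 15, minus strand) are shown for the Ly6C pair and for the Ly6a and Ly6i pair, with capitals at each base that differs from the partner of the pair.
Ly6c2: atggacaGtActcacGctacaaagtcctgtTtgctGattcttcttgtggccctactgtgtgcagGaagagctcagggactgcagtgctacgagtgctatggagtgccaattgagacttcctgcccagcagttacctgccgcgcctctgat
Ly6c1: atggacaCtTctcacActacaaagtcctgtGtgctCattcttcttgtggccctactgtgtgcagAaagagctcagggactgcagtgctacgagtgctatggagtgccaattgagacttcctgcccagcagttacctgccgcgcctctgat
Ly6a: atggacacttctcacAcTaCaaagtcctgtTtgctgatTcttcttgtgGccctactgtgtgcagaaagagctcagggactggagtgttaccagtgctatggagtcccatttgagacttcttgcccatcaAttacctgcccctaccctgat
Ly6i: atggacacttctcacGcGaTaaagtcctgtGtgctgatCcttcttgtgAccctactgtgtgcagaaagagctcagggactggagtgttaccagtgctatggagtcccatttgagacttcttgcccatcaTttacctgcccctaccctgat
Ly6c2 and Ly6c1 differ at 6 of these 150 bases and at 9 of all 396 coding bases, an identity of 97.7%. Ly6a and Ly6i differ at 7 of the bases shown and at 55 of all 405 coding bases, an identity of 86.4%. Against Ly6c2, the coding identity was 81.7% for Ly6a, 81.5% for Ly6i and 48.2% for Ly6e.

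Sharing over the whole transcripts, untranslated parts included, was counted in exact windows. Of all distinct 36-base windows of the Ly6c2 transcript, 48.4% also occurred in a transcript of another gene, and Ly6c1 alone held 44.5% of them. With 75-base windows the shared part of Ly6c2 was 21.9%, all of it with Ly6c1. Ly6c1 shared 51.2% of its 36-base windows with another gene, Ly6a 17.9%, Ly6i 15.6% and Ly6e 0.445%. Neither read length nor the treatment of reads with several matches is given in the sources used here.

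**Figure D1:**
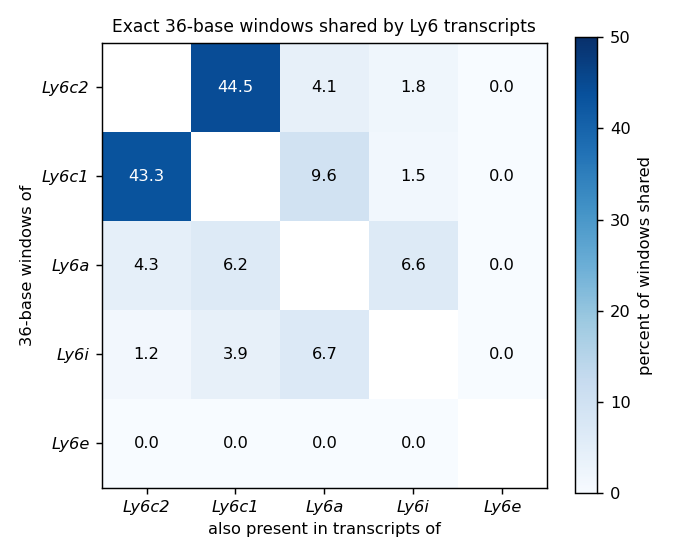
Percent of the exact 36-base windows of each transcript (rows) that also occur in a transcript of each other gene (columns), from 1 GENCODE transcript of the row's gene. The Ly6c2 and Ly6c1 pair shares 44.5% and 43.3%, every other pair shares under 10%, and Ly6e shares 0 with the other 4.

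Ly6c2, the Ly6C gene associated with inflammatory monocytes, showed the largest difference of the 5. It was 14.3 and 17.3 FPKM in the Ch25h_KO libraries, against 3.12 and 2.70 FPKM in the Ch25h_WT libraries. FPKM are fragments per length of transcript, scaled to the number of mapped fragments. Both Ch25h_KO libraries lay above both Ch25h_WT libraries, and the gap of 11.2 FPKM between the groups was wider than the distance between libraries of a group. The means were 15.8 ± 2.14 FPKM in Ch25h_KO and 2.91 ± 0.297 FPKM in Ch25h_WT (SD, n = 2 libraries each), a ratio of 5.42 and a difference of 2.10 on the log2(FPKM + 1) scale. Among 10074 tested loci, whose FPKM averaged 1 or more across the libraries, 12 had a larger positive difference. In bulk libraries more cells that express Ly6c2 and more Ly6c2 RNA per cell cannot be told apart, and the same holds for each gene below.

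Ly6c1, whose product is also found on endothelial cells and T cells, was the lowest of the 5. It was 0.788 and 0.144 FPKM in the Ch25h_KO libraries, against 0.761 and 0.634 FPKM in the Ch25h_WT libraries, so the groups overlapped. At the depth implied by low values and a transcript of 844 bases these levels stand for about 7 and 1 fragments in Ch25h_KO and about 8 and 5 in Ch25h_WT, too few to show a modest difference. Its mean was under the filter of 1 FPKM and it was not tested. For Ly6c2 the same calculation gave about 121 and 137 fragments in Ch25h_KO and about 32 and 22 in Ch25h_WT.

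The Ly6C pair did not keep a fixed ratio. The Ly6c2 level was 18.1 and 120 times that of Ly6c1 in the Ch25h_KO libraries, and 4.10 and 4.26 times in the Ch25h_WT libraries. The wide spread in Ch25h_KO comes with the single implied Ly6c1 fragment in replicate 2. Added together, which does not depend on how shared reads were divided within the pair, Ly6c1 and Ly6c2 were 15.1 and 17.5 FPKM in the Ch25h_KO libraries and 3.88 and 3.34 FPKM in the Ch25h_WT libraries. The summed level was 4.51 times as high in Ch25h_KO, with a difference of 1.90 on the log2(FPKM + 1) scale. The sum may still hold reads shared with Ly6a, which stood at 147 to 169 FPKM. Ly6a held 4.07% of the 36-base windows of Ly6c2 and 9.64% of those of Ly6c1. The part of such reads in the sum was not tested.

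Ly6i, the low-expressed relative of Ly6a, was 3.75 and 3.04 FPKM in the Ch25h_KO libraries, against 1.49 and 1.73 FPKM in the Ch25h_WT libraries. The groups did not overlap, with means of 3.39 ± 0.499 and 1.61 ± 0.169 FPKM (SD, n = 2 libraries each). The ratio was 2.11, and 43 tested loci had a larger positive difference than its 0.75 on the log2(FPKM + 1) scale. About 45 and 34 implied fragments in Ch25h_KO and about 22 and 20 in Ch25h_WT stand behind these levels.

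Ly6a, the Sca-1 gene, was much higher and differed far less. It was 169 and 162 FPKM in the Ch25h_KO libraries, against 149 and 147 FPKM in the Ch25h_WT libraries. The groups did not overlap, and the difference was 0.16 on the log2(FPKM + 1) scale, a ratio of 1.12. The Ly6a level was 45.2 and 53.3 times that of Ly6i in the Ch25h_KO libraries, and 100.2 and 85.1 times in the Ch25h_WT libraries. The part of reads shared between the pair in these values was not tested.

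Ly6e, the antiviral member and the highest of the 5, was 334 and 346 FPKM in the Ch25h_KO libraries, against 285 and 284 FPKM in the Ch25h_WT libraries. The groups did not overlap, and the difference was 0.26 on the log2(FPKM + 1) scale, a ratio of 1.19. Its transcript shares almost no 36-base window with other genes.

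**Figure D2:**
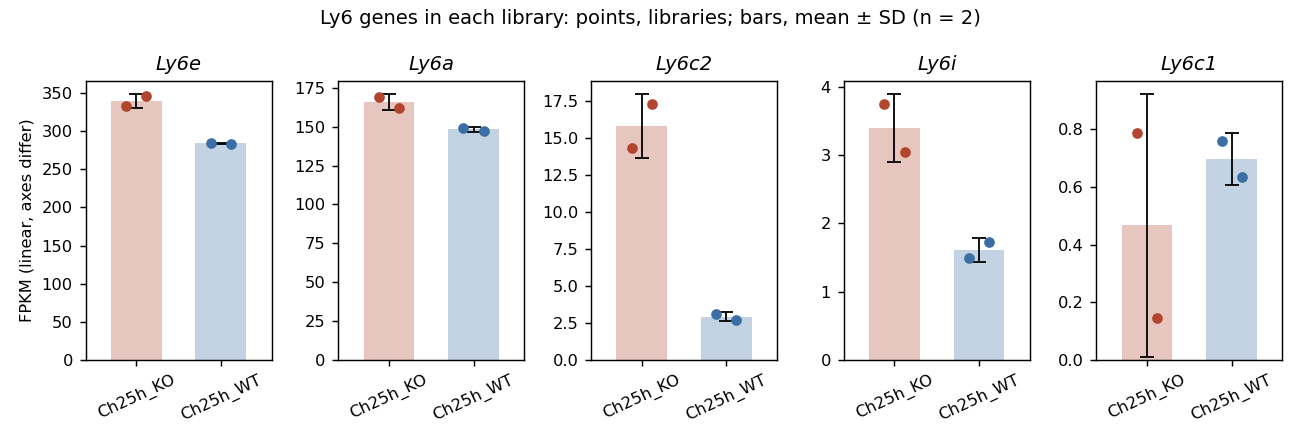
FPKM of each Ly6 gene in the Ch25h_KO (left) and Ch25h_WT (right) libraries on a linear axis from 0 that differs between panels. Points are libraries and bars the mean ± SD of 2. The groups are apart for Ly6e, Ly6a, Ly6c2 and Ly6i and overlap for Ly6c1.

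The order of the levels per length was the same in each of the 4 libraries: Ly6e, Ly6a, Ly6c2, Ly6i, Ly6c1. Every pair of neighbours in that order was apart by more than the spread within a group, the closest in ratio being Ly6c2 and Ly6i in Ch25h_WT, at 2.91 ± 0.297 and 1.61 ± 0.169 FPKM (SD, n = 2 libraries each). Ly6e held 63.9% and 65.4% of the summed FPKM of the 5 genes in Ch25h_KO, and 64.8% and 65.1% in Ch25h_WT. The share of Ly6c2 was 2.74% and 3.28% in Ch25h_KO, and 0.711% and 0.619% in Ch25h_WT. The sum itself was 522 and 529 FPKM in Ch25h_KO, and 440 and 436 FPKM in Ch25h_WT, and Ly6e made up most of the difference.

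Of the 5 genes, 4 passed the filter, and these 4 would have passed on their Ch25h_WT values alone. All 4 were higher in both Ch25h_KO libraries than in either Ch25h_WT library, which also held for 23.4% of all tested loci, while 30.3% were lower without overlap. These 4 differences were part of the choice of the genes and nothing is read from the count. The median difference of all tested loci was -0.014.

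**Figure D3:**
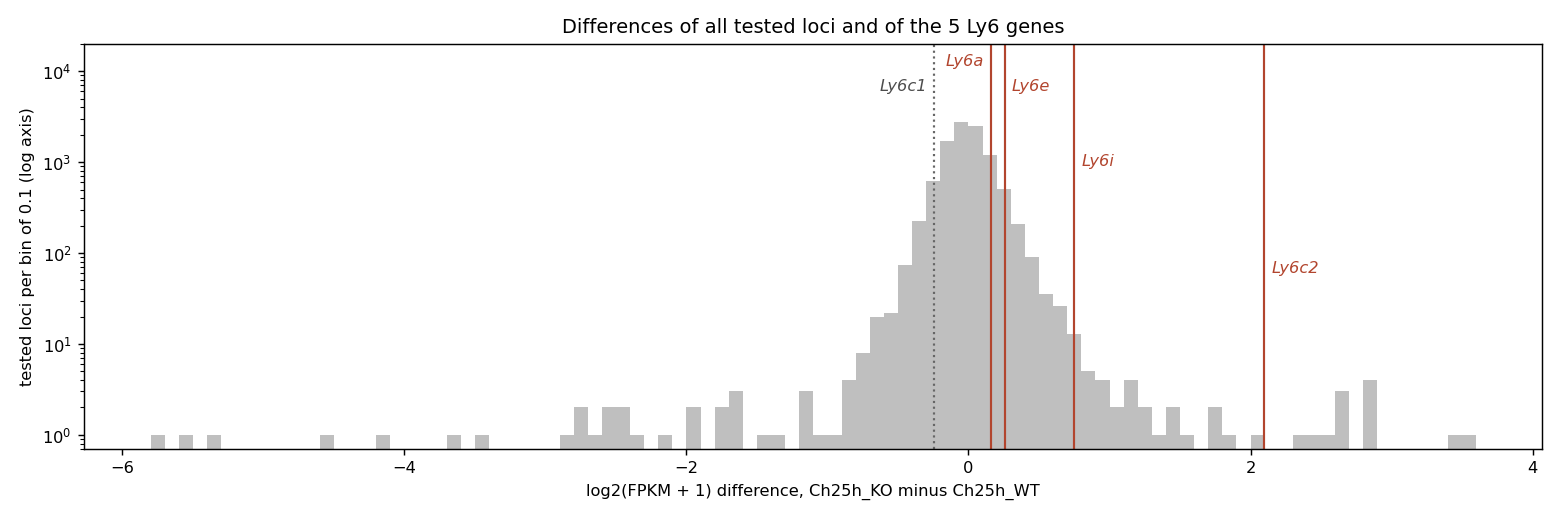
Number of tested loci (log axis) in bins of 0.1 of the log2(FPKM + 1) difference, Ch25h_KO minus Ch25h_WT, with lines at the Ly6 genes; the dotted line marks Ly6c1, which was under the filter. Ly6c2 at 2.10 lies far in the upper tail, Ly6i at 0.75 at its edge, and Ly6a and Ly6e within the main body.

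The promoter windows of the Ly6C pair, the only 2 of the 5 genes matched in the RefSeq promoter table, are shown because the pair is alike in coding sequence and unlike in level. Each window of 300 bases spans a transcript start, most of it upstream (RefSeq, GRCm38.p6, minus strand). Capitals mark bases that differ from the other window or have no counterpart in it. The Ly6c2 window lies at chr15:75111922-75112221 and the Ly6c1 window at chr15:75048788-75049087.
Ly6c2: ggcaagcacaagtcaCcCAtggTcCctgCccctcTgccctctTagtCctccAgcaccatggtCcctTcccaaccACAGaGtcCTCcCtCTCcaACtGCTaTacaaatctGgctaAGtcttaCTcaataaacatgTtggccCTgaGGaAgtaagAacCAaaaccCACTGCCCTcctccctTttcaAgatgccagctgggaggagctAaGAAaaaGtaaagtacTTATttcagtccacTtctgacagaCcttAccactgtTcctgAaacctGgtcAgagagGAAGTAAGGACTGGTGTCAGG
Ly6c1: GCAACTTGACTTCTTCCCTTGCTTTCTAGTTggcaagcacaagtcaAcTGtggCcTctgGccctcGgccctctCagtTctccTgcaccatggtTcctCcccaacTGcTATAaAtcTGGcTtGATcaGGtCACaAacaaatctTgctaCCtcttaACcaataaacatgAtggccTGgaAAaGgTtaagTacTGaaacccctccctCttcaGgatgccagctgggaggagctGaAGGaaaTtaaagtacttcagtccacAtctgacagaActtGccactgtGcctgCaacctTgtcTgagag
The windows had the same base at 208 of 282 aligned positions, 73.8%, less than the coding sequence. Interferon motifs were searched on both strands in all windows, also a second one listed for each gene. The core of the interferon-stimulated response element, 2 copies of GAAA with any 2 bases between them, was in 0 of 2 windows of Ly6c2, in 0 of 2 of Ly6c1 and in 3.44% of 32851 windows of all genes. The gamma-activated site, TTCNNNGAA, was in 0 of 2 windows of each gene and in 8.30% of all windows. These letters may stand outside the windows, and no statement on a factor follows.

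Most neighbours of the 5 genes were silent in these libraries. Among 12 listed genes that stand beside them on chromosome 15 in RefSeq order, 8 were listed at 0 in all 4 libraries, among them Ly6f and Ly6h, and 2 were tested. Ly6d, a marker of B-cell-committed progenitors, was 60.7 and 66.3 FPKM in Ch25h_KO, against 69.0 and 66.2 FPKM in Ch25h_WT, and overlapped. Lynx1, which encodes a GPI-anchored modulator of nicotinic receptors, was 1.12 and 0.898 FPKM in Ch25h_KO, against 1.57 and 1.10 FPKM in Ch25h_WT, and overlapped too. Ly6g, the neutrophil antigen gene of this cluster, was not analysed here.

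**Figure D4:**
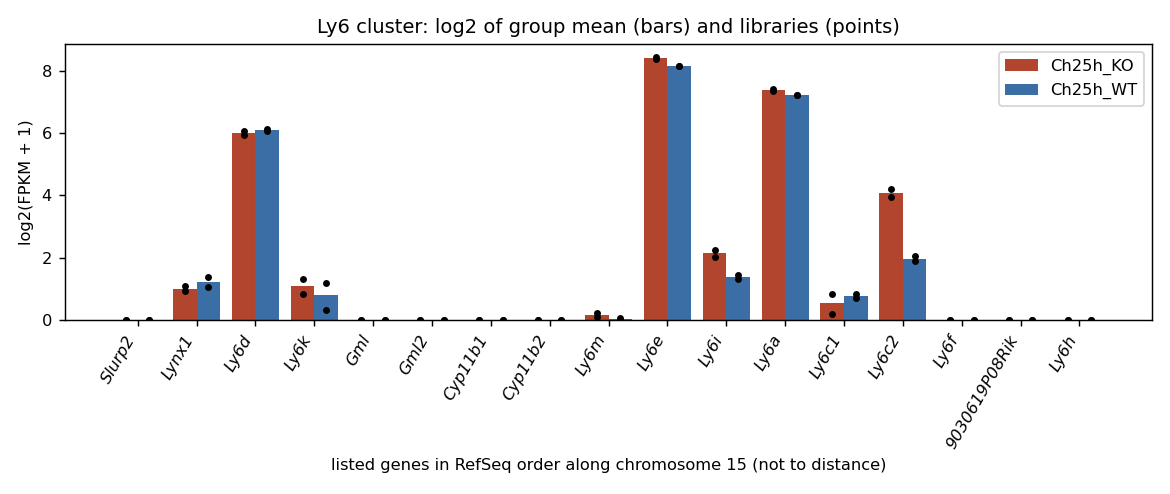
log2(FPKM + 1) of the listed genes around the Ly6 cluster in their RefSeq order on chromosome 15, Ch25h_KO left and Ch25h_WT right; bars are group means and points libraries, and gaps between genes are not to scale. Ly6d, Ly6e and Ly6a are the high genes, and the groups stand widest apart at Ly6c2.

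In the wider Ly6 and urokinase receptor family, 33 of 36 listed genes were found, 22 of them at 0 in all 4 libraries, and 3 were tested. Differences were tested with limma on log2(FPKM + 1) over all 10074 loci, of which 44 (0.437%) passed at a Benjamini-Hochberg adjusted p under 0.05. None of the 3 passed with limma, and 1 had an unadjusted p under 0.05. This was Plaur, the urokinase receptor gene, at 196 and 185 FPKM in Ch25h_KO, against 146 and 142 FPKM in Ch25h_WT (log2 difference 0.40, SE 0.059, limma adjusted p = 0.088).

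Genes that build and attach the GPI anchor, which most Ly6 proteins need, differed little. None of 27 tested members passed with limma, with 1 higher and 0 lower at unadjusted p under 0.05, where the background over all loci was 9.38% higher and 11.5% lower. That gene was Gpaa1, a subunit of the transamidase that attaches the anchor, at 15.2 and 13.9 FPKM in Ch25h_KO and 12.96 and 11.4 FPKM in Ch25h_WT (log2 difference 0.24). The median difference of the list was 0.025.

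Interferon-induced genes were examined because Ly6 genes are among them. Of 27 tested genes of the interferon gamma list, 2 rose (limma, adjusted p under 0.05) and none fell. These were Nos2, the inducible nitric oxide synthase, at 70.8 and 72.0 FPKM in Ch25h_KO and 36.3 and 36.5 FPKM in Ch25h_WT, and Cxcl9, a T-cell chemokine, at 1.88 and 1.80 FPKM in Ch25h_KO and 0.293 and 0.366 FPKM in Ch25h_WT (limma adjusted p = 0.012 for each). Cxcl9 passed the filter only through Ch25h_KO, where it is high, as did Gbp9 and Serping1; over the 24 genes above 1 FPKM in both groups 1 rose, Nos2. At unadjusted p under 0.05, 15 of the 27 were higher and 1 was lower, with a median difference of 0.21, against 12 higher and 1 lower of the 24, with a median of 0.17. Among the higher ones were H2-Ab1, an MHC class II gene, and Cd74, the class II invariant chain gene. They were named after their values were seen and had log2 differences of 0.38 and 0.31. Gbp2, a guanylate-binding protein gene, was 81.0 and 90.5 FPKM in Ch25h_KO and 50.05 and 52.1 FPKM in Ch25h_WT (log2 difference 0.74, limma adjusted p = 0.052). Irf8, a transcription factor of the monocyte lineage, was the lower one, at 30.9 and 30.8 FPKM in Ch25h_KO and 34.8 and 33.7 FPKM in Ch25h_WT.

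Of 33 tested genes of the type I interferon list, 1 rose, Zbp1, a sensor of Z-form nucleic acids, at 21.96 and 21.6 FPKM in Ch25h_KO and 13.4 and 13.5 FPKM in Ch25h_WT (limma adjusted p = 0.035). At unadjusted p under 0.05, 9 were higher and 3 lower, with a median difference of 0.077. Ifitm3, an inhibitor of virus entry, was 1498 and 1491 FPKM in Ch25h_KO and 1155 and 1130 FPKM in Ch25h_WT (log2 difference 0.39). Parp9 and Parp14, which encode ADP-ribosyltransferases, had log2 differences of -0.24 and -0.20. Of the 15 tested interferon receptors and signalling genes none passed with limma, with 1 higher (Irf7, log2 difference 0.48) and 1 lower (Irf8) at unadjusted p under 0.05, and the list's median difference was 0.0017. Ifnb1, which encodes interferon beta, was listed at 0 in all 4 libraries. Ifng, which encodes interferon gamma, was 0 and 0.093 FPKM in Ch25h_KO and 0.143 and 0 FPKM in Ch25h_WT, and was not tested. Nos2, Cxcl9 and Zbp1 no longer passed when any 1 library was left out. With limma's trend and robust options, which called 786 of all tested loci (7.8%), 10 genes of the interferon gamma list, 5 of the type I list and 3 of 5 tested neutrophil markers rose. In that setting 4 Ly6C-high monocyte markers rose and 1 fell, 2 large resident macrophage markers rose and 4 fell, and each other list had at most 1 call in either direction.

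**Figure D5:**
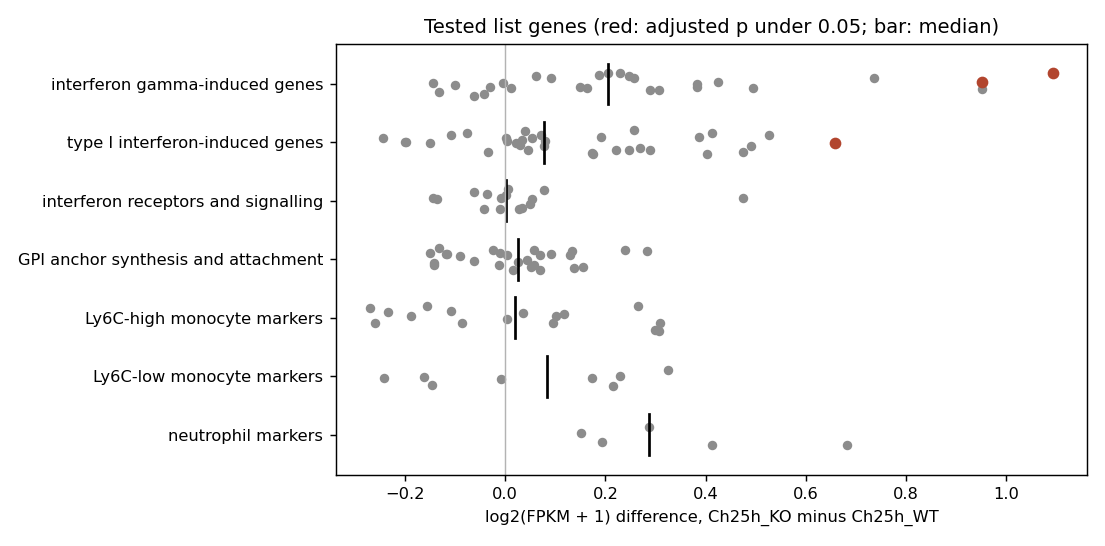
log2(FPKM + 1) difference, Ch25h_KO minus Ch25h_WT, of each tested gene of 7 lists; red points passed limma at adjusted p under 0.05 and black bars are list medians. The interferon gamma and neutrophil medians, 0.21 and 0.29, lie right of the Ly6C-high monocyte median of 0.020. The interferon gamma points include Cxcl9, Gbp9 and Serping1, which met the filter only through Ch25h_KO, where they are high. Over the 24 genes of that list above 1 FPKM in both groups the median was 0.17.

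Other markers of Ly6C-high monocytes lay on both sides of 0. Of 16 tested markers none passed with limma, and at unadjusted p under 0.05, 4 were higher (Lyz1, Hp, Chil3 and Plac8) and 3 lower, among them Gda and Vcan. The median difference was 0.020. Ccr2, the receptor that brings these monocytes to inflamed tissue, was 2.45 and 1.988 FPKM in Ch25h_KO, against 1.998 and 1.993 FPKM in Ch25h_WT. Thbs1, Lyz1 and Fn1 led the list, whose summed level was 11641 to 12039 FPKM in Ch25h_KO and 11398 to 11482 FPKM in Ch25h_WT. Of 8 tested markers of Ly6C-low monocytes none passed with limma, with 2 higher and 1 lower at unadjusted p under 0.05. Their median difference was 0.083. The list's sum was 420 to 444 FPKM in Ch25h_KO and 471 to 514 FPKM in Ch25h_WT. Most of it was Fabp4, at 380 and 351 FPKM in Ch25h_KO and 412 and 453 FPKM in Ch25h_WT. The sum thus mainly follows this 1 gene and is not read as a level of the list.

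Every pan-macrophage marker was detected in every library, with Fcgr1 the lowest at 4.22 to 4.83 FPKM. None of the 10 pan-macrophage markers passed with limma (2 higher and 0 lower at unadjusted p under 0.05), their median difference was -0.029, and Lyz2, Cd14 and Itgam led them. Their summed level was 28547 to 29253 FPKM in Ch25h_KO and 27162 to 28086 FPKM in Ch25h_WT. Cd14 was 6870 and 6751 FPKM in Ch25h_KO and 5178 and 5288 FPKM in Ch25h_WT, a wider gap than that of the sum. Lyz2 and Itgam overlapped between the groups. Of 13 large resident peritoneal macrophage markers, led by Cxcl13, Prg4 and Fcna, 1 fell. This was Apoc1, an apolipoprotein gene, at 122 and 124 FPKM in Ch25h_KO and 258 and 285 FPKM in Ch25h_WT (limma adjusted p = 0.016), a call lost when any 1 library was left out. The Apoc1 locus is numbered next to that of Apoe, which was higher in Ch25h_KO as given below. A link between these differences was not tested. At unadjusted p under 0.05, 3 of the 13 markers were higher and 4 lower, with a median difference of -0.024. The list summed to 4989 to 4997 FPKM in Ch25h_KO and 5394 to 5506 FPKM in Ch25h_WT.

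The neutrophil and fibroblast lists had larger summed levels in Ch25h_KO, though no member passed with limma. Of 13 neutrophil markers 5 were tested; none passed with limma, 4 were higher and 0 lower at unadjusted p under 0.05, and the median difference was 0.29. S100a8 was 99.0 and 98.7 FPKM in Ch25h_KO, against 56.3 and 66.6 FPKM in Ch25h_WT. The list, led by Lcn2, S100a8 and Csf3r, summed to 408 to 414 FPKM in Ch25h_KO and 294 to 311 FPKM in Ch25h_WT. Most of this sum was Lcn2, at 245 and 239 FPKM in Ch25h_KO and 178 and 186 FPKM in Ch25h_WT. The sum is therefore not read as an amount of neutrophils. Of the 8 neutrophil markers under the filter, 3 (Camp, Cxcr2 and Mpo) were lower without overlap in Ch25h_KO, 1 (Ngp) was higher without overlap and 4 overlapped. The granule genes Mpo and Elane were at 0 in both Ch25h_KO libraries and at most 0.061 and 0.125 FPKM in Ch25h_WT. Fibroblast and mesothelial markers, of cells that can carry Ly6a, were low, at a sum of 4.15 to 4.997 FPKM in Ch25h_KO and 1.39 to 1.61 FPKM in Ch25h_WT. Their 1 tested member Dcn, a matrix proteoglycan gene, did not pass (log2 difference 0.91, limma adjusted p = 0.11), and it met the filter only through Ch25h_KO. Of the 9 under the filter, 6 were higher without overlap and 3 overlapped. The share of all loci under the filter that did not overlap was not computed. Nothing is read from this count or from that of the neutrophil markers under the filter. Whether neutrophils or fibroblasts had a part in the Ly6 differences was not tested.

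Markers were also summed for further cell types, some of which carry Ly6 proteins. Endothelial markers summed to 4.65 to 4.96 FPKM in Ch25h_KO and 5.70 to 5.94 FPKM in Ch25h_WT, with 5 of 11 (Tek, Tie1, Cldn5, Emcn and Ptprb) at 0 in all 4 libraries and Pecam1, which macrophages also express, making up most of the rest. T-cell markers, led by Cd2, Il7r and Lck, summed to 45.5 to 47.6 FPKM in Ch25h_KO and 41.9 to 45.4 FPKM in Ch25h_WT, and 0 of 6 tested passed with limma, adjusted or at unadjusted p under 0.05. Natural killer cell markers summed to 2.22 to 2.65 FPKM in Ch25h_KO and 0.960 to 1.85 FPKM in Ch25h_WT, with 0 tested. B-cell and plasma cell markers, led by Cd79b, Cd79a and Ms4a1, summed to 322 to 340 FPKM in Ch25h_KO and 352 to 359 FPKM in Ch25h_WT. Of their 11 tested members none passed with limma, with 1 higher and 3 lower at unadjusted p under 0.05 and a median difference of -0.11. Dendritic cell markers, led by Ccr7, Cd209a and Zbtb46, summed to 51.0 to 54.3 FPKM in Ch25h_KO and 44.4 to 45.5 FPKM in Ch25h_WT; none of 4 passed with limma, and 2 were higher at unadjusted p under 0.05.

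The loci whose profiles over the 4 libraries were most like that of each Ly6 gene were found by the Euclidean distance between log2(FPKM + 1) values centred on their mean. For Ly6c2 the nearest was Apoe at a distance of 0.52, and the 5 nearest also held Ccl5 at 0.89, Tmem119 at 0.96 and Cxcl9 at 1.04. Apoe was 3683 and 3373 FPKM in Ch25h_KO, against 614 and 610 FPKM in Ch25h_WT, and Ccl5, a chemokine for T cells, was 333 and 319 FPKM in Ch25h_KO, against 127 and 142 FPKM in Ch25h_WT. For Ly6i the nearest were Calhm6, the inhibitory receptor gene Pdcd1, Il1f6, S100a8 and Rgs1, at 0.14 to 0.19. Those nearest to Ly6a were Lpcat2, Id2, Cyp4f18, Hspa14 and Serp1, at 0.013 to 0.014, and those nearest to Ly6e were Gpr35, Slc38a1, Ctla2b, Serinc5 and Hk3, at 0.014 to 0.028. Ly6c1 was nearest to Rnase6 at 0.089, then Gmpr2, Zfp467, Apoo (a locus shared with Apoo-ps) and Thap2. Over 4 libraries many loci lie close to a gene with a small difference, so little can be read from the shorter distances. Ly6c2 was chosen with its difference known, and the loci nearest to it are themselves loci with large positive differences. Nothing is read from those matches either.

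The label check and depth bear on all of these values. Ch25h was 4.25 and 5.53 FPKM in Ch25h_KO, against 63.3 and 65.3 FPKM in Ch25h_WT, lower where the label says it was deleted. Apoe, labelled as deleted in all 4 libraries, was detected in all and differed between the groups as given above, so a difference between the groups beyond Ch25h and the effect of Ch25h cannot be told apart. Libraries listed 13813 to 13970 loci above 0 FPKM, and the implied depth was about 9613850 to 12485105 fragments. With 2 libraries a group, limma p-values rest on the spread between these libraries, at the gene itself and pooled over all tested loci. For Zbp1 the pooled SD within groups was 0.013 and limma's SE of the difference was 0.051, on the log2(FPKM + 1) scale. The spread between libraries may be partly technical.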

How the data were processed

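RNA-seq values were taken from 4 libraries, 2 Ch25h_KO and 2 Ch25h_WT. The authors deposited FPKM per locus; the header names no unit, and this was read from the values and the Cufflinks-type locus identifiers. Per the submitters' processing notes, bcl2fastq, TopHat2 2.0.14, Cufflinks 2.2.1 and build mm9 were used; annotation, strand and scaling are not stated there. The 24192 lines were joined into 23735 loci, and 0 columns of other samples were left out. Loci averaging 1 FPKM or more were tested with limma 3.58.1 (R 4.3.3) on log2(FPKM + 1), a scale that understates differences of low genes, modelling genotype alone, with Benjamini-Hochberg adjustment over all 10074 loci. FPKM are not counts, so no count test was run.

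Relative depth was recovered from low values. Values were whole multiples of a unit chosen for each locus at 91.2% of 2274 loci averaging under 0.2 FPKM. The tolerance was 0.01 fragments, or 0.01 of the count where that is larger. Absolute depth used the lengths of 420 single-transcript genes of GENCODE vM21, so implied fragments are approximate. Transcripts were compared with Biopython 1.88 on GRCm38; mm9 coordinates were not used. The Ly6 genes and the 16 lists were chosen with earlier results of these data known. Named genes are the Ly6 genes, Ch25h and Apoe, the 5 nearest profiles of each Ly6 gene, list genes past the threshold, up to 2 higher and 2 lower list genes by p, and the 3 highest markers of a list. Others (Ccr2, Mpo, Camp, Cxcr2, Ngp, Fcgr1, Gbp9, Serping1, Ifng, Elane, Pecam1, Lyz1, Hp, Chil3, Plac8, Gda, Vcan, S100a8 among markers, genes at 0, Ly6f and Ly6h) were named after their values were seen. Some genes that the rule names are not reported here. Alternatives covered pseudocount, scaling, filters, left-out libraries, a replicate block, limma's trend option and summed paralogs.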

Additional observations from a re-analysis of the deposited data

How the results depend on the processing

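The differences of Ly6c2, Ly6i, Ly6a and Ly6e stayed positive in each setting tried. With a pseudocount of 0.1 FPKM the log2 differences were 2.40 for Ly6c2, 1.03 for Ly6i and -0.77 for Ly6c1. With libraries scaled to the same total they were 0.12 for Ly6a and 0.22 for Ly6e. With paralogs added together, Ly6c1 and Ly6c2 gave 1.90 (against -0.25 for Ly6c1 alone), and Ly6a and Ly6i gave 0.17. Leaving out 1 library at a time gave 1.97 to 2.23 for Ly6c2, 0.63 to 0.86 for Ly6i, 0.13 to 0.19 for Ly6a and 0.23 to 0.28 for Ly6e. For Ly6c1 it gave -0.57 to 0.076, the sign turning without Ch25h_KO replicate 2, so its direction rests on that library. The 44 loci called became 18 with no filter, 175 with a filter of 5 FPKM, 786 with limma's trend and robust options and 13 to 21 with a library left out, where the lone library is assumed to vary like the other group. Of 174 tested list genes 4 were called (Nos2, Cxcl9, Zbp1 and Apoc1), where 0.437% of all tested loci were. A pseudocount of 0.1 FPKM gave 3 list genes, losing Zbp1, and 0.298% of all tested loci. The 5 FPKM filter, with fewer genes tested, gave 18 list genes and 2.42% of all tested loci. Trend and robust gave 36 list genes and 7.8% of all tested loci. Replicate numbers are shared by the groups, but same-numbered libraries did not deviate together (r = 0.012 over 10074 loci). With the replicate block, 6 loci and 0 list genes were called with limma (1915 loci and 62 list genes at unadjusted p under 0.05), and the Ly6 differences are the same by construction. Depth limits Ly6c1, Ly6i and, in Ch25h_WT, Ly6c2, which rest on few fragments.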
